A study of Mus musculus with 6 samples.

Results

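Apobec1, Apobec2 and Apobec3, mouse genes of the APOBEC family of cytidine deaminases, were followed in RNA from lung endothelial cells, the cells that line the vessels of the lung. They were picked by name, together with the earlier sight that Apobec2 was lower in the libraries labelled knockout, and they are 3 of the 24520 genes in the deposited tables. The cells had been sorted by flow cytometry, and the series holds 3 RNA libraries with the genotype label WT (wild type) and 3 with the label KO (knockout), the gene in question being Dnmt3a, a methyltransferase that methylates cytosines in DNA anew. No source used here gives the allele, a Cre driver, the strain, the age of the mice or the markers of the sort. The labels do not say whether replicates are separate animals, and p-values therefore measure only the spread between these libraries, which may be technical in part. Where 3 values follow each other for a label, they stand for its replicates 1, 2 and 3 in that order.

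APOBEC proteins remove the amino group from cytosine in RNA or single-stranded DNA and so turn it into uracil. Apobec1 is the editing enzyme of apolipoprotein B mRNA and needs an RNA-binding partner; Apobec3 restricts retroviruses and retroelements; Apobec2 is best known from skeletal and heart muscle, and no deaminase activity is firmly established for it. Apobec4 is a little-known further gene of the family.

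A library held between 28136194 and 39999172 estimated counts. Its detection floor was set at 3 counts, or 0.0796 to 0.102 CPM (the count relative to the library total after scaling by TMM factors). Dnmt3a itself ran against the labels, with 1079 to 1235 counts under the WT label and 4750 to 5090 under the KO label (log2 fold change 2.22, SE 0.11, edgeR adjusted p = 0.00157). Single exons of Dnmt3a were not analysed here. Whether the labels were exchanged cannot be told from these tables, and if they were, the direction of each fold change given here would turn. Groups are therefore called by their labels, and every difference or fold change sets KO against WT. All 12 endothelial markers were measured in the tested set, and their summed level overlapped between the labels, at 16376 to 20680 CPM in WT and 16275 to 19252 CPM in KO. Xist and Y-linked transcripts showed replicate 1 of each label to be female and replicates 2 and 3 male. Within each label, replicate 1 therefore came from another animal than replicates 2 and 3. Whether replicates 2 and 3 are separate animals is not known.

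The 3 members carry the zinc-binding motif of cytidine deaminases, in which a histidine and 2 cysteines hold the zinc ion and a glutamate takes part in the reaction. The coding stretches of that motif are shown because they are what makes these genes one family and because Apobec3 holds it in 2 copies. They were cut from the GENCODE M21 transcript with the longest complete coding sequence of each gene (build mm10) and run 5′ to 3′ in the sense of the gene. Capitals mark, in order, the codons of the histidine, the glutamate and the 2 cysteines.
Apobec1, exon 6, chr6:122581507-122581614, minus strand: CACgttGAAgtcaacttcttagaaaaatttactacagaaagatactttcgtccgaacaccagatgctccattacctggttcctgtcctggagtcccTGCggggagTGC
Apobec2, exon 2, chr17:48423244-48423345, minus strand: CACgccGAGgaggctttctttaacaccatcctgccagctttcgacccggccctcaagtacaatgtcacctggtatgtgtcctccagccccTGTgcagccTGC
Apobec3, first copy, exon 3, chr15:79897704-79897817, plus strand: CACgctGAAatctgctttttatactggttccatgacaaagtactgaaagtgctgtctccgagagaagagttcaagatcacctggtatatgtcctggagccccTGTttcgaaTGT
Apobec3, second copy, exon 7, chr15:79906353-79906448, plus strand: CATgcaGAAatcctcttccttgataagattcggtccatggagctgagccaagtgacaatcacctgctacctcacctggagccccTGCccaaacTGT
The stretches are 108, 102, 114 and 96 bases long, so the spacing between the glutamate and the first cysteine differs between the members while the last 2 cysteines are equally far apart in all 4. The encoded proteins, translated from the same transcripts, have 229 residues for Apobec1, 224 for Apobec2 and 440 for Apobec3. In local alignments the identity was 31.0% over 100 residues between Apobec1 and Apobec2, 34.3% over 137 residues between Apobec1 and Apobec3, and 35.5% over 169 residues between Apobec2 and Apobec3.

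Apobec2 (ENSMUSG00000040694) lies on chromosome 17, 48419231 to 48432930, minus strand, and has 2 annotated transcripts, of which 1 is protein-coding. It had 247, 246 and 438 estimated counts under WT and 69, 36 and 46 counts under KO. Scaled for depth these were 7.52, 8.33 and 11.6 CPM in WT and 2.33, 1.19 and 1.56 CPM in KO. Every library labelled KO was below every library labelled WT, and the lowest WT library was 3.22 times the highest KO library. The means were 9.15 ± 2.17 CPM in WT and 1.69 ± 0.584 CPM in KO (mean ± SD, n = 3 each), a 5.41-fold lower level and a log2 fold change of -2.43 (SE 0.35).

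Since this difference is what brought the family into view, it is given as a description without a test. All 3 KO libraries were below all 3 WT libraries for 9.42% of the 14667 genes tested, Apobec2 among them. In the order of size, 43 of the 14667 genes had a lower log2 fold change, or 18 of the 12222 with a mean count of at least 50. Over the whole table edgeR's quasi-likelihood test called 5 genes (0.0341%), and 1855 had an unadjusted p under 0.05. In the fits that left out 1 library each, the log2 fold change of Apobec2 stayed between -2.74 and -2.22.

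**Figure D1:**
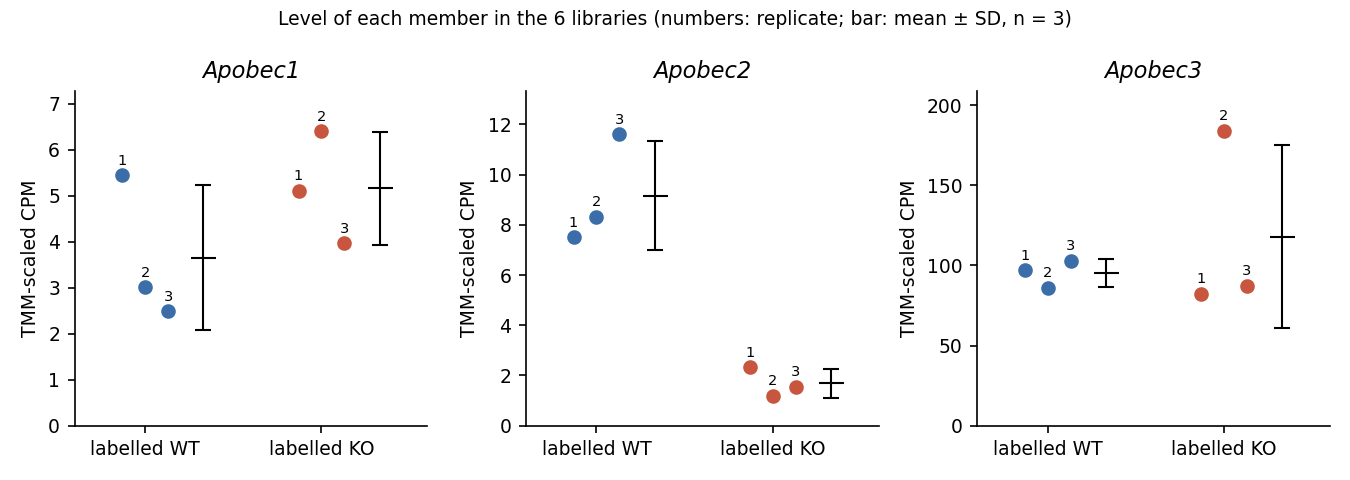
TMM-scaled CPM (y axis, from 0) of Apobec1, Apobec2 and Apobec3 in each library, by label; points are libraries with their replicate number, and the bar beside them is the mean ± SD (n = 3). Apobec2 lies at 7.52 to 11.6 CPM under WT and 1.19 to 2.33 CPM under KO, while the labels overlap for Apobec1 and Apobec3 and KO replicate 2 stands apart for Apobec3.

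Muscle is where Apobec2 is best known, so the markers of striated muscle were read beside it. Of 20 markers, 17 were tested, 14 of them with a positive and 3 with a negative log2 fold change, and edgeR called 0, with Myl7 and Tnni3 at an unadjusted p under 0.05; DESeq2 called Myl7. Their median log2 fold change was 1.09, and 0.48 without KO replicate 2. None of the 20 was at 0 in every library. Their summed level was 27.5 to 52.1 CPM in WT and 40.8 to 122 CPM in KO, and its part in the Apobec2 difference was not tested. Myl7, the regulatory light chain of atrial myosin, had 39, 16 and 25 counts under WT and 140, 438 and 43 counts under KO. Actc1, cardiac actin, and Des, the intermediate filament desmin, were the markers with the highest mean CPM and overlapped between the labels (log2 fold changes 1.09, SE 0.93, and 0.81, SE 0.42). In bulk samples fewer cells of a type and less RNA per cell cannot be told apart.

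Markers of other cell types were read in the same way. The 10 fibroblast markers summed to 142 to 202 CPM in WT and 298 to 434 CPM in KO, with 9 of 10 positive (median 1.14). None was at 0 in every library. An unadjusted p under 0.05 (edgeR) was found for 6 of 10, against 1855 of all 14667 tested genes. Higher without overlap were 7 of 10, against 1592 of all 14667. Of the 10 markers edgeR called 1, Col3a1, a fibrillar collagen, and DESeq2 called 4, Col1a1, Col3a1, Dcn and Inmt. The 9 markers of alveolar epithelial type 2 cells, all detected, had a median log2 fold change of -1.08, which was 0.021 without WT replicate 1, -1.65 without WT replicate 2 or without KO replicate 1, and -0.65 without KO replicate 3. They summed to 206 to 9378 CPM in WT and 660 to 3569 CPM in KO, so that the labels overlapped; edgeR called 0 of 9, with 0 at an unadjusted p under 0.05, as did DESeq2. The part of fibroblast and epithelial RNA in the Apobec2 difference was not tested.

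Apobec1 (ENSMUSG00000040613) lies on chromosome 6, 122577792 to 122602444, minus strand, with 9 annotated transcripts. It had 179, 89 and 94 counts under WT and 151, 194 and 117 under KO. These were 5.45, 3.01 and 2.49 CPM in WT and 5.11, 6.41 and 3.96 CPM in KO. The labels overlapped, because WT replicate 1 lay above KO replicates 1 and 3. The means were 3.65 ± 1.58 and 5.16 ± 1.22 CPM (SD, n = 3 each), with a log2 fold change of 0.50 (SE 0.38). Single libraries weighed on it: it was 0.90 without WT replicate 1, 0.29 without WT replicate 3 and 0.31 without KO replicate 2. The coefficient of variation of Apobec1 was 43.2% within WT and 23.7% within KO. The median gene with a mean count of at least 50 had 13.1% and 15.5%. Apobec2 had 23.7% within WT and 34.5% within KO, and Apobec3 had 8.97% and 48.5%.

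Apobec1 is also made by macrophages, so their markers were read beside it. Csf1r, Marco and C1qc were listed at 0 in every library, and 5 of the 15 macrophage and monocyte markers passed the filter on low counts, none called by edgeR or DESeq2 and none at an unadjusted p under 0.05. The summed level of the list was 24.5 to 443 CPM in WT and 34.4 to 192 CPM in KO, of which Lyz2 made 12.5 to 423 CPM in WT and 25.4 to 182 CPM in KO. Lyz2 is a lysozyme that alveolar epithelium also makes, and its counts are uncertain because of its near-identical copy Lyz1. Cd68, a lysosomal protein of macrophages, overlapped between the labels, at 3.39 to 5.59 CPM in WT and 4.16 to 4.63 CPM in KO. The part of macrophage RNA in the level of Apobec1 was not tested.

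Apobec3 (ENSMUSG00000009585) lies on chromosome 15, 79891659 to 79915906, plus strand, with 20 annotated transcripts, 11 of them protein-coding. It had the highest counts of the members, with 3188, 2543 and 3883 counts under WT and 2437, 5570 and 2581 counts under KO. These were 97.0, 86.1 and 103 CPM in WT and 82.4, 184 and 87.4 CPM in KO. A single library stood apart: KO replicate 2 was 1.79 times the next highest library, WT replicate 3, and the other 5 lay between 82.4 and 103 CPM. The means were 95.4 ± 8.55 CPM in WT and 118 ± 57.2 CPM in KO (SD, n = 3 each), with a log2 fold change of 0.31 (SE 0.30) that was -0.17 without KO replicate 2. KO replicate 2 was at least 1.5 times above every other library for 319 of the 12222 genes that averaged 50 counts or more (2.61%), against 49 to 168 genes for each other library, so Apobec3 shares this with many genes.

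Compared per length, in the authors' TPM values, the order of the members changed with the label. This largely restates the Apobec2 difference that the choice of members used, and is a description. Apobec3 was highest in every library, at 50.8 to 58.0 TPM in WT and 49.7 to 111 TPM in KO. Apobec2 came next in WT, at 12.3, 13.7 and 17.5 TPM in replicates 1, 2 and 3, above Apobec1 at 4.29, 2.41 and 1.82 TPM. In KO, Apobec2 was at 4.06, 1.97 and 2.56 TPM and Apobec1 at 4.40, 5.22 and 3.19 TPM. The ratio of Apobec2 to Apobec1 within a library was thus 2.87, 5.71 and 9.61 in WT and 0.923, 0.377 and 0.803 in KO, above 1 in all 3 WT libraries and below 1 in all 3 KO libraries. In KO replicate 1 the 2 genes were nearly level, and over the KO libraries their means, 2.86 ± 1.08 TPM for Apobec2 and 4.27 ± 1.02 TPM for Apobec1 (SD, n = 3), lay close to each other's spread. Apobec2 made up 16.7% to 22.7% of the members' summed TPM in WT and 1.66% to 6.98% in KO. The lowest of these shares was in KO replicate 2, where Apobec3 was at 111 TPM.

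**Figure D2:**
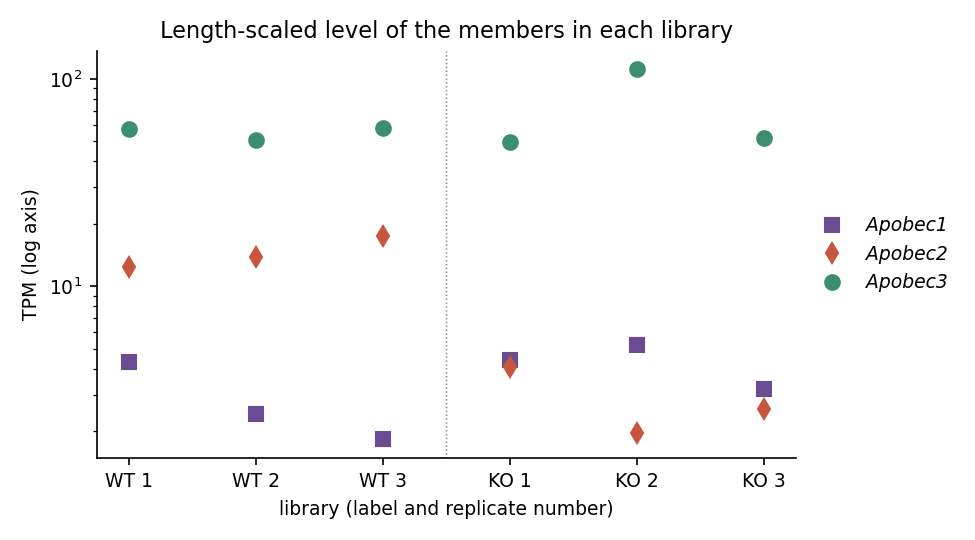
TPM on a log axis of Apobec1 (squares), Apobec2 (diamonds) and Apobec3 (circles) in each of the 6 libraries. Apobec3 is highest throughout, and Apobec2 lies above Apobec1 in the 3 libraries labelled WT (12.3 to 17.5 TPM) and below it in the 3 labelled KO (1.97 to 4.06 TPM).

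Apobec4, no member of the set, had 13, 0 and 19 counts under WT and 0 in every library labelled KO, where up to 0.0991 to 0.102 CPM could go unseen. Because WT replicate 2 was also at 0, the labels overlapped. It did not pass the filter on low counts. Markers of B cells had a summed level of 11.7 to 12.9 CPM in WT and 12.9 to 28.6 CPM in KO, with 7 of 9 tested markers positive, 0 called by edgeR or DESeq2 and 1, Cd22, at an unadjusted p under 0.05; none of the 10 was at 0 in every library. T and NK cell markers summed to 6.44 to 8.87 CPM in WT and 5.94 to 9.31 CPM in KO (4 of 12 tested, 0 called by either tool, 1 at an unadjusted p under 0.05, Lck). Neutrophil markers summed to 26.7 to 32.9 CPM in WT and 29.5 to 37.2 CPM in KO, with Ly6g at 0 in every library (4 of 9 tested, 0 called by either tool, 0 at an unadjusted p under 0.05). Of the neutrophil sum, the single gene Cxcr2 made 24.1 to 30.8 CPM in WT and 27.3 to 31.5 CPM in KO. Of the B cell sum, Ebf1 made 2.67 to 5.41 CPM in WT and 3.49 to 14.2 CPM in KO. The part of B cell RNA in the members' levels was not tested.

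The tables also allow a look at which transcripts of a gene were in use, since the ratio of a gene's estimated count to its TPM follows the mean length of its transcripts. This ratio was divided in each library by its median over 11154 genes. For Apobec2 it was 0.364 to 0.366 of the median gene in WT and 0.364 to 0.365 in KO, with a coefficient of variation of 0.164% over the 6 libraries; the median gene had 0.333%. The KO over WT ratio of this quantity was 0.998 for Apobec2, and the labels overlapped. For Apobec1 the ratio was 0.758, 0.753 and 0.754 under WT and 0.735, 0.739 and 0.745 under KO, lower under KO without overlap between the labels (KO over WT ratio 0.980, coefficient of variation 1.22%). Of the 11154 genes, 8.29% had all KO libraries below all WT libraries in this ratio. The deposited counts are whole numbers, 89 to 194 per library for Apobec1, so rounding can move its ratio. Whether rounding covers the small gap between 0.753 and 0.745 was not tested. For Apobec3 it ran from 0.979 to 1.02 in WT and from 0.997 to 1.05 in KO, with a coefficient of variation of 2.35%. KO replicate 2, where Apobec3 was highest, lay within the range of WT.

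Position on the chromosome was examined next, with the 5 nearest tested genes on each side of each member. Apobec2 was picked for a low value, so its place below all 10 of its neighbours follows from that choice and is a description only. The log2 fold changes of these neighbours ran from -0.43 to 1.22, with 4 of 10 negative. Both ends of that range were genes with few counts. Unc5cl, the lowest, had a mean count of 16.2 (SE 0.78), and Treml2, the highest, had 12.5 (SE 0.87). The farthest neighbour, Daam2, lay 1023092 bases away. Oard1, an ADP-ribose hydrolase gene 1965 bases from Apobec2, was at 35.3 CPM in WT and 31.9 CPM in KO (log2 fold change -0.14, SE 0.13). Tspo2, 14977 bases away on the other side and related to the mitochondrial translocator protein, had 3 to 23 counts in WT and 6 to 17 in KO. Nfya, a subunit of the CCAAT-binding factor NF-Y and the next gene after Oard1, was the only neighbour of Apobec2 without overlap, at 36.8 to 39.6 CPM in WT and 28.8 to 32.7 CPM in KO (log2 fold change -0.28, SE 0.12, edgeR adjusted p = 0.389); it was named after its values were seen.

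Around Apobec1, Mfap5, a microfibril protein of fibroblasts 48502 bases away, was at 1.83, 0.745 and 2.44 CPM under WT and 3.38, 3.67 and 4.64 CPM under KO (log2 fold change 1.22, SE 0.47, edgeR adjusted p = 0.362). Mfap5 is one of the fibroblast markers above. Nanog, the pluripotency factor on the other side, whose processed copies in the genome make its counts uncertain, overlapped between the labels (6.53 and 6.40 CPM on average, log2 fold change -0.03, SE 0.27). Both nearest neighbours of Apobec3 overlap it in position. D730005E14Rik, an uncharacterised gene on the same strand, covers the start of Apobec3, and Cbx7, a Polycomb protein gene on the opposite strand, overlaps its end. Reads from shared stretches cannot be told apart here. Both were highest in KO replicate 2, as Apobec3 was, but by less: 1.39 times the next library for D730005E14Rik and 1.12 times for Cbx7. Over all 30 neighbours edgeR and DESeq2 each called 0, with 4 at an unadjusted p under 0.05 (Mfap5, Foxj2, Necap1 and Nfya), and 6 of 30 did not overlap between the labels, against 20.3% of all tested genes.

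**Figure D3:**
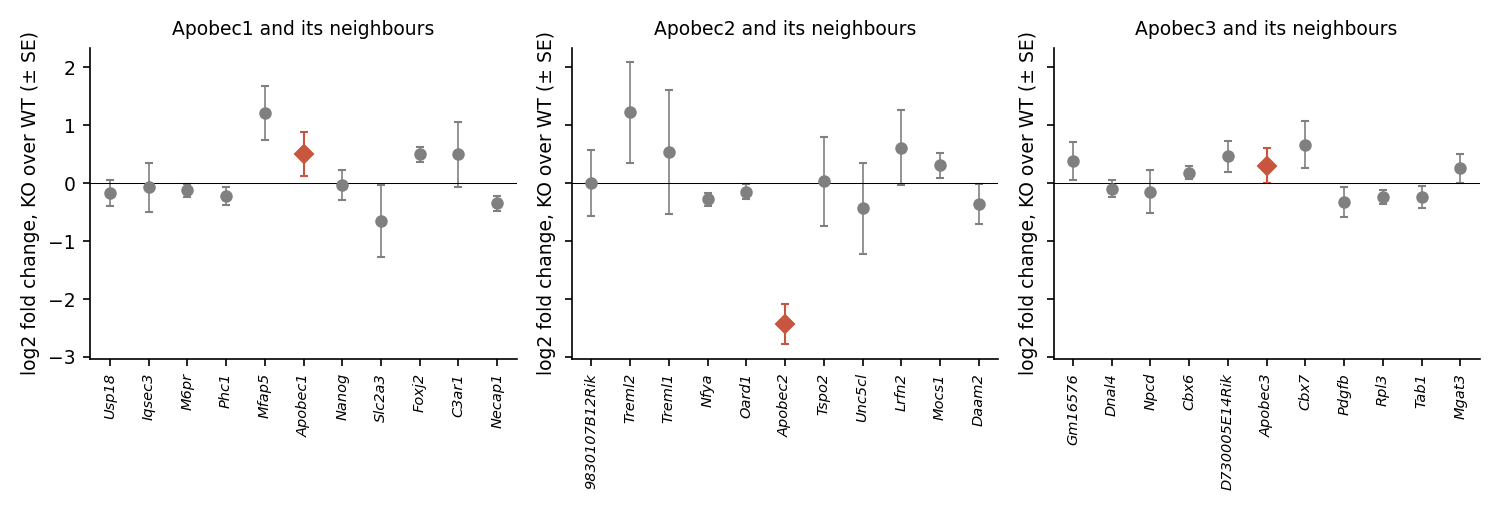
Log2 fold change of libraries labelled KO over WT (y axis, ± SE) for each member (red diamond) and the 5 nearest tested genes on either side (grey points), in chromosome order on the x axis. Apobec2, picked for a low value, is at -2.43, and its neighbours run from -0.43 to 1.22, with genes of few counts at both ends.

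The 250 bases before the RefSeq start of each member were counted for CpG, the dinucleotide that Dnmt3a methylates. Methylation itself was not analysed here. Apobec2 held 4 CpGs, more than 37.8% of the 32817 promoter windows of that length, Apobec1 held 7 (more than 53.7%), and the first of 2 windows of Apobec3 held 12 (more than 66.5%) and the second 3. The median window held 6. A TATAAA box, which 12.4% of windows hold on either strand, occurred once each in the windows of Apobec1 and Apobec2 and in the second of Apobec3. The same windows held 2, 3 and 3 E-boxes (CANNTG), of which 66.2% of windows have at least 1. The interferon-stimulated response element, searched as GAAA followed after 2 bases by another GAAA and found on either strand in 2.97% of windows, occurred once in the first window of Apobec3 and not in those of Apobec1 or Apobec2. No window of the members held a MEF2 site (2.92% of all windows do), an NF-kappaB site (7.90%) or the gamma-activated site TTCNNNGAA (7.01%). GENCODE places the Apobec2 start further out, so that 202 of its 250 bases lie inside the first GENCODE exon.

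Genes that follow the members over the 6 libraries were ranked by the root mean square difference of log2 CPM, each gene centred on its own mean, among 11647 genes. The choice by likeness makes these values a description. Nearest to Apobec2 was Sema3b, a secreted semaphorin, at 0.23 log2 units, against 1.28 for the median gene. Sema3b was at 92.7, 107 and 124 CPM under WT and 28.3, 19.9 and 26.8 CPM under KO. Gstm6, a glutathione transferase (0.25), and Ptn, the growth factor pleiotrophin (0.33), came next. Like Apobec2, all 3 were highest in WT replicate 3 and lowest in KO replicate 2, and their labels did not overlap. Ptn reached 32.7 CPM in WT replicate 3 and was at 3.10 CPM in KO replicate 2.

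Nearest to Apobec3 were Prickle1, a planar cell polarity protein (0.038 log2 units), Rasgef1a, a guanine nucleotide exchange factor (0.043), and Slc25a42, a mitochondrial carrier (0.047). Each shared the single high library: Prickle1 was at 534 CPM in KO replicate 2 and at 246 to 308 CPM in the other 5. Apobec1 was nearest to Neto1 (0.12), Zfp287 (0.14) and Prkdc (0.15), the last the catalytic subunit of DNA-dependent protein kinase. Prkdc was lowest in WT replicate 3, at 8.72 CPM, and highest in KO replicate 2, at 20.9 CPM, as Apobec1 was.

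**Figure D4:**
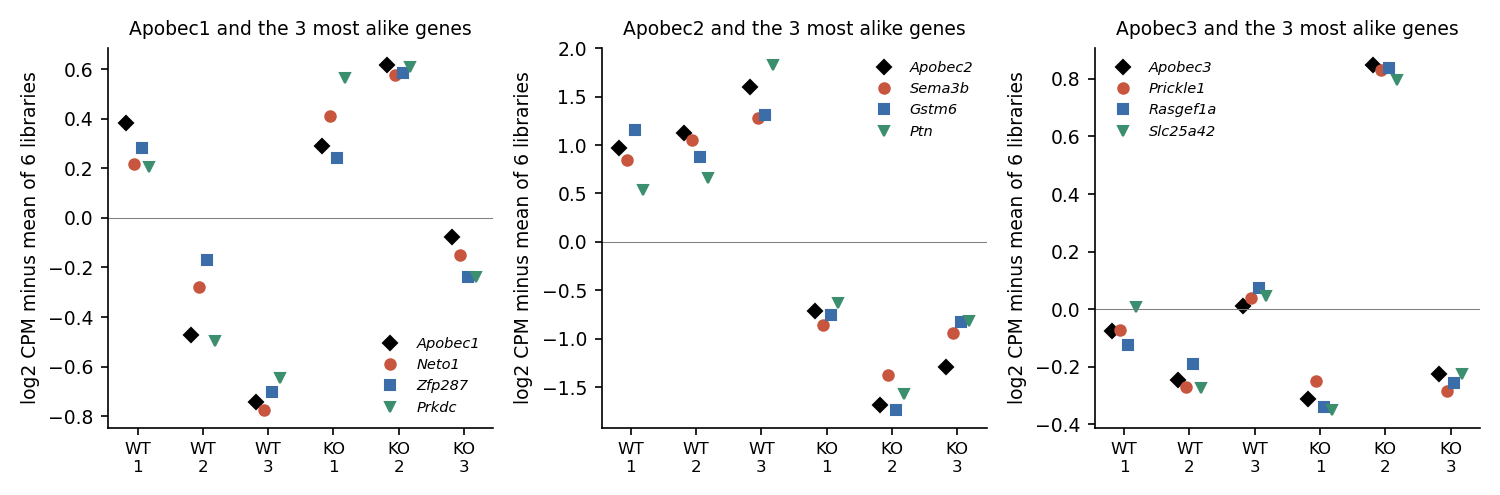
Log2 CPM minus the gene's mean over the 6 libraries (y axis) for each member (black diamonds) and its 3 most alike genes, by library. Apobec2 and its 3 genes are high in the libraries labelled WT and low in those labelled KO, whereas Apobec3 and its 3 genes stand out in KO replicate 2 alone.

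The genes that work with these enzymes were then read by role. Over the lists of partners, targets, repair enzymes, other deaminases, restriction factors and interferon-stimulated genes, edgeR called 0 of 85 tested genes, with 10 at an unadjusted p under 0.05 (6 higher, 4 lower). DESeq2 called 2 of them, B2m and Oas2, and 2.68% of all genes to which it gave an adjusted p. The genes called most abundant in a list have its highest mean CPM over the 6 libraries, which is not corrected for length. Groups did not overlap for 15 of 85 (17.6%), near the 20.3% over all tested genes. The median log2 fold change over all tested genes was 0.0086.

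Partners of Apobec1 in RNA editing had 4 of 6 positive (median 0.18, or 0.057 without KO replicate 3), none called by edgeR or DESeq2 and 1, the splicing regulator Khsrp, at an unadjusted p under 0.05 (log2 fold change 0.33, SE 0.12). Syncrip and Hnrnpab, RNA-binding proteins that can join the editing complex, were the most abundant, at 143 and 82.7 CPM in WT and 157 and 96.6 CPM in KO (log2 fold changes 0.13, SE 0.15, and 0.22, SE 0.20). A1cf, the classical complementation factor, was scarce, with 11 to 22 counts in a library. Rbm47, which can stand in for it and is known from epithelium, had 399, 14 and 261 counts under WT and 103, 91 and 47 under KO. Its order over the libraries was that of the alveolar type 2 sum, highest in WT replicate 1 and lowest in WT replicate 2. Rbm47 and A1cf were named after their values were seen.

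Transcripts known elsewhere as Apobec1 editing targets had 7 of 13 tested positive and 6 negative (median 0.05, with values on either side of 0 without single libraries, -0.07 without KO replicate 2), none called by edgeR and 2 at an unadjusted p under 0.05, B2m and the caspase gene Casp6, both with negative values. Editing itself was not measured. Tmbim6, an inhibitor of cell death, and Cd36, a fatty acid receptor, were the most abundant. Tmbim6 was at 2035 CPM in WT and 1714 CPM in KO (log2 fold change -0.25, SE 0.17). Cd36 was at 1338 CPM in WT and 1802 CPM in KO (log2 fold change 0.43, SE 0.23), and KO replicate 2 was 1.71 times its next highest library. B2m, the light chain of MHC class I and the target DESeq2 called, was at 1377, 1099 and 2753 CPM under WT and 923, 865 and 744 CPM under KO. Apob, the namesake target, had 66, 0 and 38 counts under WT and 3, 0 and 0 under KO and was not tested.

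Uracil and mismatch repair genes, which act on the uracil that deaminases leave, had 12 of 14 negative (median -0.23, or -0.14 without WT replicate 2), with 0 called by edgeR or DESeq2 and 0 at an unadjusted p under 0.05. Parp1, the strand-break sensor and the most abundant of them, was at 72.5 CPM in WT and 58.3 CPM in KO (log2 fold change -0.31, SE 0.14). Other nucleoside and RNA deaminases had 10 of 14 positive (median 0.22, or 0.091 without WT replicate 3 and 0.098 without KO replicate 3), with 0 called by either tool and 1, the guanine deaminase Gda, at an unadjusted p under 0.05. Adar, the main adenosine-to-inosine editor, was at 95.6, 101 and 87.5 CPM under WT and 104, 134 and 108 CPM under KO, without overlap (log2 fold change 0.29, SE 0.13, edgeR adjusted p = 0.414). Cdadc1, a further cytidine deaminase domain protein, averaged 84.3 CPM in WT and 87.4 CPM in KO (log2 fold change 0.05, SE 0.13).

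Retrovirus and retroelement restriction factors, the company of Apobec3, had 6 of 16 positive (median -0.06, or -0.16 without KO replicate 2 and -0.034 without KO replicate 3), 0 called by edgeR or DESeq2 and 3 at an unadjusted p under 0.05 (Serinc3 positive, Mov10 and Rnaseh2a negative). Serinc3, a membrane protein that lowers the infectivity of retroviruses, was at 379, 349 and 382 CPM under WT and 401, 1458 and 495 CPM under KO. KO replicate 2 was 2.95 times the next library, the same library that stood out for Apobec3. Ifitm3, which blocks viral entry, was at 432 CPM in WT and 459 CPM in KO (log2 fold change 0.09, SE 0.15). Interferon-stimulated genes had 19 of 22 positive (median 0.24, or 0.054 without KO replicate 2), 0 called by edgeR and 3 at an unadjusted p under 0.05 (Ifit3, Oas2 and Parp14). Ifi35 and Irf9, the latter a subunit of the interferon-activated factor ISGF3, were the most abundant, Ifi35 at a log2 fold change of 0.16 (SE 0.16) and Irf9 at 0.09 (SE 0.19). The summed level of the interferon list was highest in KO replicate 2, at 1157 CPM, against 802 to 908 CPM in the other 5 libraries. Oas2, an interferon-induced sensor of double-stranded RNA, had 11, 7 and 0 counts under WT and 101, 113 and 48 under KO.

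**Figure D5:**
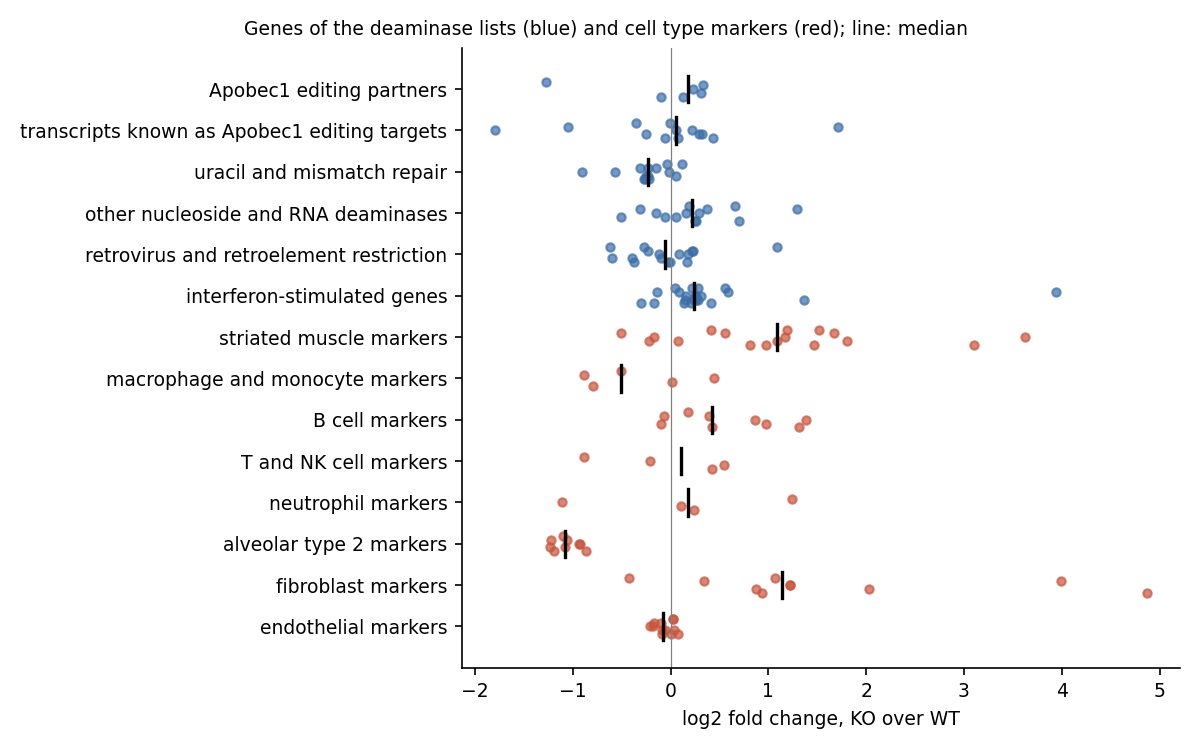
Log2 fold change (x axis) of each tested gene of the deaminase lists (blue) and of the cell type markers (red), one row per list, with the median as a black line. The blue medians lie between -0.23 and 0.24, while the medians of the alveolar type 2, fibroblast and striated muscle markers are -1.08 (0.021 without WT replicate 1), 1.14 and 1.09 (0.48 without KO replicate 2).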

How the data were processed

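The 2 deposited gene-level tables, keyed by Ensembl identifier, were used. The first holds the authors' estimated counts, deposited in whole numbers without normalization; the second holds the authors' TPM values, with sums per library of 875864 to 885609. Kallisto and the build mm10 are named in the submitters' processing notes; versions, the annotation and the summing of transcripts to genes: not given in the sources used here. Per the labels' protocols, libraries were made with a SMARTer low-input kit and read as pairs of 100 bases, and no source states that strand was kept. Of 24520 identifiers, 24299 were matched to GENCODE M21 on the same assembly.

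Counts were rounded, which changed none. The whole table was fitted with edgeR 4.0.16 (quasi-likelihood test, TMM factors, filterByExpr, limma 3.58.1, R 4.3.3), and p-values were adjusted by Benjamini-Hochberg over 14667 genes at 0.05. The standard error is the log2 fold change over the square root of F. The alternatives changed the tool (DESeq2 1.42.0; limma on TPM with a pseudocount of 1 or 0.1, or with genes under a mean of 1 TPM left out), the scaling (RLE, upper quartile), the filter (none; mean count 50), the model (replicate block; sex covariate) or the libraries (each left out in turn). The test was tried on simulated counts, and the outcome, with its power and error rate, is not reported here. Libraries of a label differed by more than sampling noise (chi-square 44.8 to 99.2 times its degrees of freedom). Floors cover counting error only.

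The members and lists were chosen with earlier results of these data known. Genes named are the family, Dnmt3a, for each list described at most 4 genes past the threshold or else the 2 most abundant, the nearest tested neighbours, and the 3 most alike genes of each member (prior count 2, mean count of at least 50); all others, such as Myl7, B2m, Apob, Oas2, Khsrp, Gda, Foxj2 and the markers at 0, were named after their values were seen. Pms2 and Trac were not analysed here. Some genes that the naming rule covers are not reported here.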

Additional observations from a re-analysis of the deposited data

How the results depend on the processing

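Apobec2 was lower in the libraries labelled KO under all 16 alternatives (log2 fold change -2.74 to -2.03), and Apobec1 was positive under all 16 (0.29 to 0.90). Apobec3 was positive under 15 of 16 and -0.17 without KO replicate 2; over the fits without 1 library each it ran from -0.17 to 0.50, Apobec1 from 0.29 to 0.90 and Apobec2 from -2.74 to -2.22. The count of genes called over the whole table was 406 by DESeq2, 2 with sex as a covariate, 9 by limma on log2(TPM + 0.1) and 1 to 4 without 1 library each; the cause was not tested. Genes of the 6 deaminase lists were called only by DESeq2 (2 genes), and neighbours by none. With the replicate number as a block edgeR called 0 genes (1472 at an unadjusted p under 0.05). Deviations from the label means correlated at 0.28, -0.048 and -0.18 for numbers 1, 2 and 3. WT replicate 1 correlated best with its own number, and WT replicates 2 and 3 correlated better with another number. So few libraries cannot settle whether the numbers pair them. With the block the members' log2 fold changes were 0.55, -2.46 and 0.20. The KO over WT ratio of count to TPM of Apobec2 was 0.998 and became 0.999 with the median over genes with a TPM of at least 1. Apobec4 was scarce, with at most 19 counts in a library and 0 counts in 4 of the 6 libraries.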

Other observations

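Mtmr2, a lipid phosphatase gene on the list of editing targets, was present or nearly absent by library and not by label: it had 1, 328 and 7 counts under WT and 497, 6 and 587 counts under KO. Sex does not follow this split, since WT replicate 2 and KO replicate 3 are male and KO replicate 1 is female. The split was noticed after its values were seen, and its cause was not tested. Between the labels the log2 fold change of Mtmr2 was 1.71 (SE 1.79, edgeR adjusted p = 0.712).

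Dcn, the proteoglycan decorin, is a fibroblast marker whose labels lay far apart, with 4, 4 and 8 counts under WT and 78, 78 and 73 under KO (log2 fold change 3.99, SE 0.46, edgeR adjusted p = 0.0819, and called by DESeq2), opposite in direction to Apobec2. Gda, a guanine deaminase, had 15, 32 and 34 counts under WT and 55, 61 and 62 under KO, the one gene of the other deaminases with an unadjusted p under 0.05 (log2 fold change 1.29, SE 0.45, edgeR adjusted p = 0.339).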
